A study of Danio rerio with 6 samples.

Results

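Toll-like receptor and NF-kB signalling was described here through 50 genes, chosen by symbol from a fixed list, out of 36191 gene IDs in the deposited tables. The list held 18 receptors, 11 adaptors, 8 kinases and kinase subunits, 5 transcription factor subunits and 8 inhibitors, and all 50 symbols were found. RNA sequencing had been done on 6 libraries from wild-type zebrafish of the AB strain at 3 months of age, with liver given as the tissue. Of these, 3 came from untreated controls and 3 from fish exposed to graphene oxide nanoparticles, a sheet-like carbon material. The dose and time of exposure were not used in what follows. Nothing says whether a replicate was 1 fish, a pool or a repeat of the same RNA. Each p-value therefore rests on the spread among libraries, which may be technical.

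Toll-like receptors are membrane proteins that recognise microbial products and pass the signal through adaptor proteins to kinases that free NF-kB from its inhibitors. NF-kB then enters the nucleus and switches on inflammatory genes, including those of its own inhibitors, which limit the response. In liver this pathway is best known from macrophages, but most cell types carry its kinases and NF-kB subunits, and fish have receptors that mammals lack.

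Total expected counts, the estimated reads per library, ran from 9739760 to 12998273. Transcripts of muscle outweighed those of liver cells. The summed level of 6 skeletal muscle markers was 37521 to 57939 CPM (a gene's counts per 1000000 in its library), while 10 hepatocyte markers summed to 92.9 to 348 CPM in replicates 1 and 2 and to 5426 and 5000 CPM in control and graphene oxide replicate 3. The replicate 3 libraries stood apart from the other 4 across all genes, with a Spearman correlation of log2 CPM of 0.87 to 0.89 against 0.98 to 0.99 among the other 4. The members that the results turn on are therefore given by library, and graphene oxide was tested both over all libraries and among replicates 1 and 2. In bulk RNA, fewer cells of a type and less RNA per cell cannot be told apart.

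The inhibitors were the most abundant tier per transcript length and the receptors the least. In FPKM (fragments per kilobase of transcript and per 1000000 fragments, the authors' length-normalised unit), nfkbiab, which encodes an inhibitor that holds NF-kB in the cytoplasm, had the highest mean level at 66.9 FPKM. It was followed by tnip1, which encodes a partner of the A20 enzyme, at 34.2 FPKM, by the inhibitor gene nfkbib at 27.7 FPKM and by tollip, which encodes an adaptor that dampens receptor signalling, at 26.1 FPKM. The median of the mean levels was 15.3 FPKM for the inhibitors, 6.55 FPKM for the adaptors, 4.83 FPKM for the transcription factors, 2.46 FPKM for the kinases and 0.160 FPKM for the receptors. A mean of at least 1 FPKM was required for a test, which 29 of the 50 members met. These were 1 receptor, 9 adaptors, 7 kinases, all 5 transcription factors and 7 inhibitors. The lowest member tested was ripk1l at 1.74 FPKM, and the highest one not tested was tlr18 at 0.910 FPKM.

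**Figure D1:**
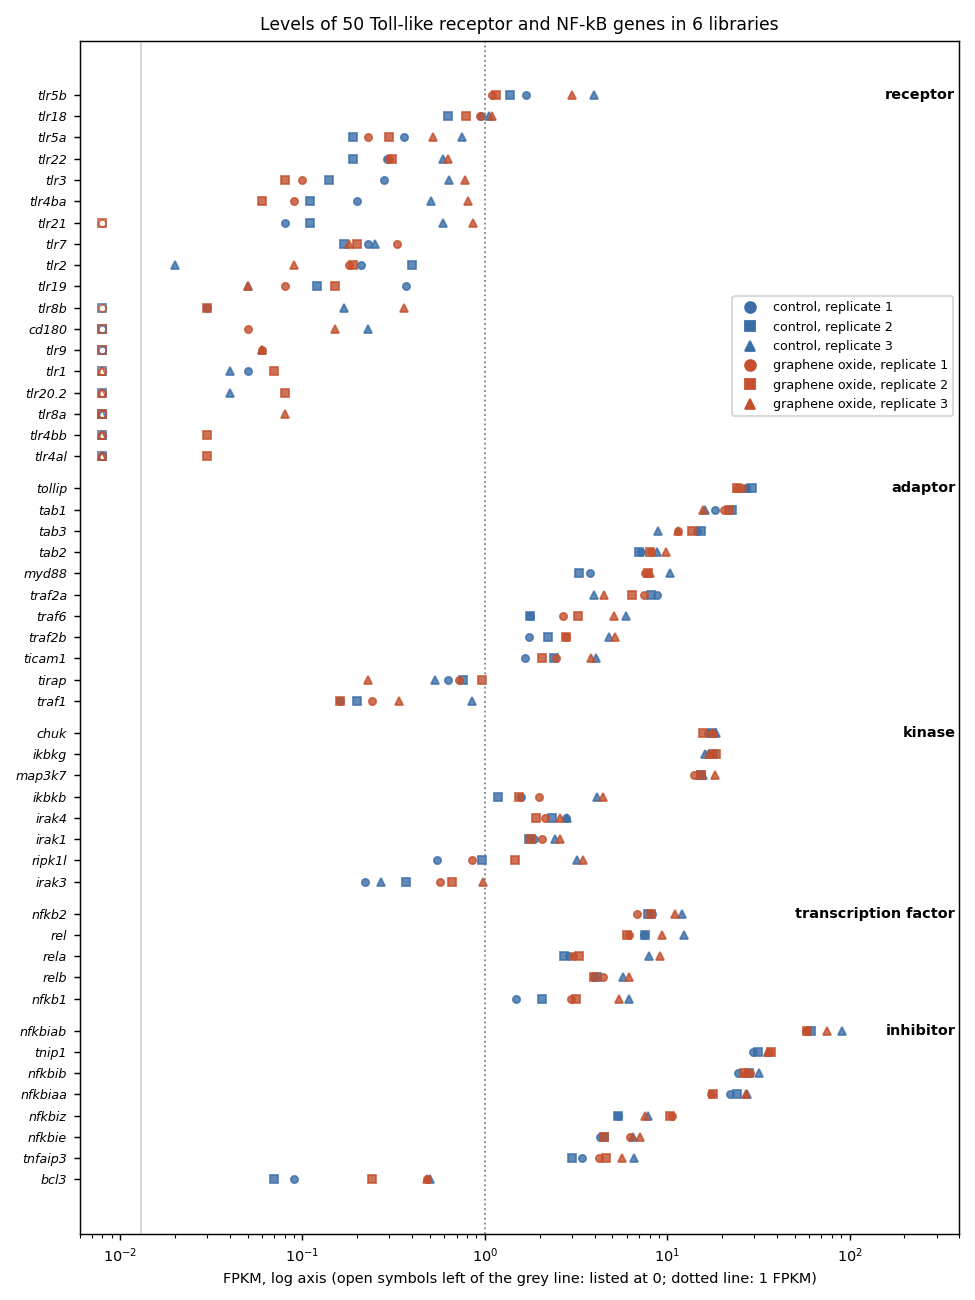
FPKM of each of the 50 members (log axis, grouped by tier, highest mean first) in the 3 control (blue) and 3 graphene oxide (red) libraries, with the marker shape giving the replicate number and open symbols on the left for values listed at 0. The receptors lie mostly left of 1 FPKM, and the triangles of replicate 3 lie to the right of the other symbols for many members, among them tlr5b, rela and nfkb1.

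Receptor transcripts were scarce in every library. Over all 18 receptor genes the summed expected counts were 135.9, 124.7 and 289 in control replicates 1, 2 and 3 and 111, 129.6 and 259 with graphene oxide. The receptor gene tlr5b (gene ID 403139), whose product senses bacterial flagellin, held 40.81, 44.03 and 114 of these in control and 29, 36 and 79.96 with graphene oxide. Its neighbour tlr5a (403138), a second flagellin receptor gene, had 11.19, 7.97 and 28 counts in control and 8, 12 and 18.04 with graphene oxide. Both had counts that were not whole, so reads were divided between similar sequences and the split between the pair is uncertain. The fish receptor gene tlr18 (403133) was the most even, with 33, 28 and 44 counts in control and 36, 36 and 38 with graphene oxide.

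Receptors for nucleic acids showed the same scarcity. The double-stranded RNA receptor gene tlr3 had 8, 5 and 21 counts in control and 3, 3 and 24 with graphene oxide. The gene tlr22, which in fish encodes a further double-stranded RNA receptor, had 8, 7 and 19 counts in control and 9, 11 and 19 with graphene oxide. In both genes the replicate 3 libraries were the highest of their group. The gene tlr21, whose product senses unmethylated DNA in fish, had 2, 4 and 20 counts in control and 0, 0 and 27 with graphene oxide, whereas tlr9, the other receptor gene for such DNA, had at most 2 counts in a library. For the single-stranded RNA receptor genes, tlr7 had 6 to 11 counts, tlr8b 0 to 12 and tlr8a 0 in all libraries but graphene oxide replicate 3, where it had 3. Where a gene had no count, a level of up to 3 counts remained possible, or 0.231 to 0.308 CPM depending on the library.

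Among the remaining receptors, tlr2, whose product binds bacterial lipopeptides, had 5, 13 and 1 counts in control and 7, 7 and 2 with graphene oxide, and its partner gene tlr1 had at most 2. The gene tlr4ba had 6, 3 and 16 counts in control and 2, 2 and 23 with graphene oxide, while tlr4bb and tlr4al, which stand beside it in the RefSeq gene order of the assembly GRCz12tu, had 1 count each over all libraries. The gene tlr19 had 2 to 12.93 counts, tlr20.2 at most 3 and cd180, which encodes a relative of the Toll-like receptors, at most 5. Of the 17 receptors below the FPKM minimum, 7 (tlr3, tlr4ba, tlr5a, tlr8b, tlr21, tlr22 and cd180) were higher in both replicate 3 libraries than in the other 4, and 2 (tlr2 and tlr19) were lower. Of all 6231 genes below the minimum with a count, 26.4% and 6.92% did so. None of the 17 separated the 3 graphene oxide libraries from the 3 controls, as 5.83% of those genes did. When no minimum was set, none of the 17 passed over all libraries or among replicates 1 and 2. In the latter the SE of the log2 fold change was 0.30 for tlr18 and at least 0.63 for the others, apart from tlr8a, which had no count there.

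Across the 29 tested members the largest differences lay between replicate 3 and the other libraries, not between treatments. Because the split by replicate 3 was seen in the data, it is described without a test. Both replicate 3 libraries were above the other 4 for 18 of 29 members (62.1%) and below them for 4 (13.8%), where these shares over all 19313 genes tested were 32.4% and 31.1%. They were above and on average at least 2-fold higher for 7 members (24.1%), against 13.2% of all genes. Both counts of higher members include ripk1l, whose mean reached 1 FPKM only through the replicate 3 libraries. The median log2 ratio of replicate 3 to the others was 0.45 over the members and 0 over all genes.

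All 5 transcription factor subunits were higher in replicate 3. The subunit gene rela (415099), which encodes p65, the main activating subunit, had control levels of 8.38, 8.26 and 22.5 CPM in replicates 1, 2 and 3. With graphene oxide it had 8.96, 9.63 and 26.8 CPM, so that replicate 3 was 2.80-fold higher than the others. These CPM, like all gene-level CPM that follow, were scaled by TMM, a correction for library composition. The gene nfkb1, which encodes the p105 precursor of p50, was 2.36-fold higher, and rel, nfkb2 and relb were 1.54-fold, 1.46-fold and 1.44-fold higher.

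The kinases split in this respect. The IKK complex releases NF-kB by marking its inhibitors for destruction, and its catalytic subunit genes behaved differently. The gene ikbkb (IKK-beta) was at 5.20, 3.89 and 10.8 CPM in control and 5.82, 4.89 and 12.7 CPM with graphene oxide, 2.38-fold higher in replicate 3. In contrast, chuk (IKK-alpha) was at 47.0 to 54.8 CPM in all 6 libraries, and the scaffold subunit gene ikbkg was at 37.3 to 45.1 CPM and slightly lower in replicate 3 (0.878-fold). The gene map3k7, which encodes the kinase TAK1 upstream of IKK, was likewise even at 45.5 to 53.4 CPM. The death domain kinase gene ripk1l had the largest ratio of all tested members, 3.39-fold, with FPKM below 1 in 3 libraries of replicates 1 and 2. At 3.19 and 3.46 FPKM in replicate 3, it met the minimum for a test only through those libraries, which favours a high ratio. The receptor-proximal kinase genes irak1 and irak4 were 1.37-fold and 1.14-fold higher, the latter with overlapping libraries.

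Adaptors went both ways, with 5 of the 9 tested above the other libraries in replicate 3 and 3 below. The gene traf6, which encodes the ubiquitin ligase that links the receptors to TAK1, was 2.28-fold higher in replicate 3 and traf2b 2.05-fold. The genes ticam1, myd88 and tab2 were 1.79-fold, 1.60-fold and 1.17-fold higher. The gene traf2a, a relative of traf2b in tumour necrosis factor receptor signalling, was 0.544-fold, tab3 0.724-fold and tab1 0.745-fold. Of the inhibitors, 4 (nfkbiaa, nfkbiab, nfkbie and tnfaip3) were higher in replicate 3 by 1.30-fold to 1.56-fold, and nfkbib, nfkbiz and tnip1 had overlapping libraries. The levels of several cell type markers moved with this split, upward or downward. Summed over 6 macrophage markers, all of them detected, the level was 21.8 to 28.9 CPM in replicates 1 and 2 and 74.7 and 94.0 CPM in replicate 3. For 6 neutrophil markers it was 60.1 to 69.9 against 77.9 and 118 CPM, and for 5 endothelial markers 59.9 to 97.4 against 175 and 186 CPM. For 8 lymphocyte markers it was 3.33 to 4.37 against 9.93 and 5.38 CPM, with cd8a at 0. In that last list the recombinase gene rag1 carried the rise, reaching at least 3.67 CPM in both replicate 3 libraries and at most 2.62 CPM in the others, while rag2 was lower there and the T and B cell markers stayed at or below 0.55 CPM in every library. Neural markers, 5 of 5, were below the other libraries in replicate 3, with sums of 1113 and 1082 against 1867 to 1988 CPM, and so were 5 of 6 skeletal muscle markers, with sums of 37521 and 38574 against 52539 to 57939 CPM. Of the 6 macrophage markers, 5 were above the other libraries in replicate 3, with slc7a7 the highest at 29.4 and 31.3 CPM. The exception, spi1b, was at 3.11 and 3.50 CPM against 2.41 to 3.48 CPM. Of the 4 tested neutrophil markers, 3 were above the other libraries. The exception, lyz, was at 25.4 CPM in control replicate 3 and 38.2 CPM in graphene oxide replicate 3, against 30.5 to 44.6 CPM. The part of these cell types in the members' levels was not tested.

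**Figure D2:**
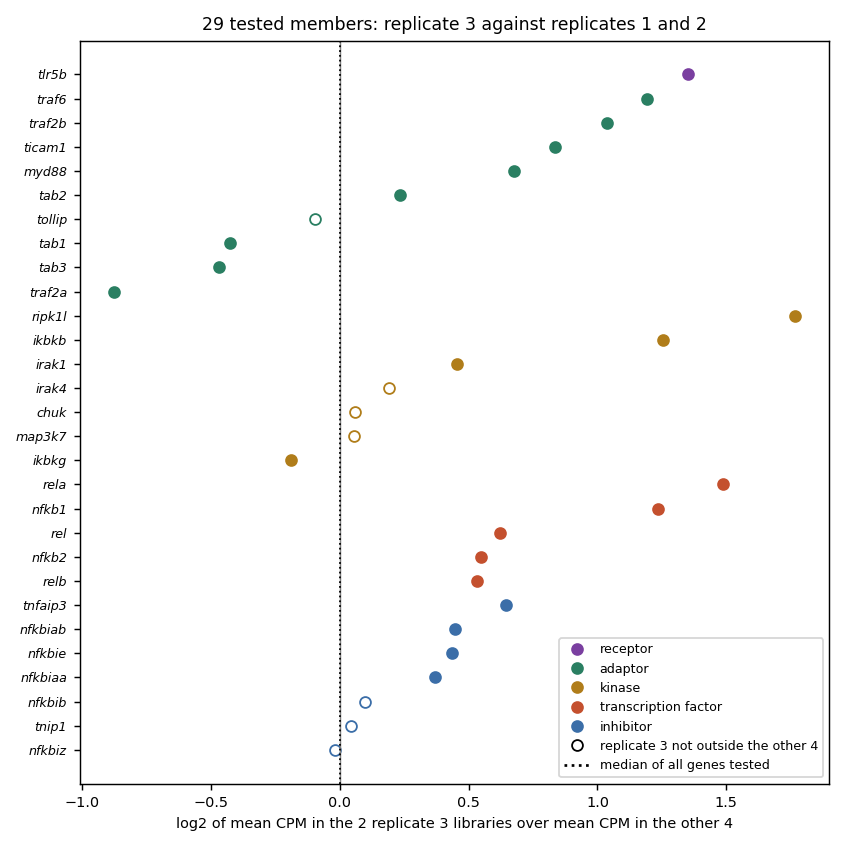
Log2 ratio of the mean CPM in the 2 replicate 3 libraries to the mean in the other 4, for each of the 29 tested members, coloured by tier. Filled points are members whose replicate 3 libraries both lie outside the range of the other 4. All 5 transcription factor genes lie to the right of the median of all genes (dotted line at 0), and traf2a lies farthest to the left.

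The main comparison asked whether graphene oxide changed these transcripts over all 6 libraries, the question that the study's title places in innate immune signalling. The quasi-likelihood test of edgeR, adjusted by Benjamini-Hochberg over 19313 genes, called none of the 29 members, and it called 0.0% of all genes. DESeq2 called 10 genes, with no adjusted p for 11 members and no call among the other 18. Of the 10 genes, 1 was the effector gene irg1l described at the end (log2 fold change 3.13, adjusted p = 0.0362). At an unadjusted p under 0.05 there were 438 genes (2.27%) in edgeR, of which nfkbiz was the only member. The median log2 fold change was 0.02 over the members and 0 over all genes tested. In this fit the split by replicate 3 is part of the spread, so the lack of calls does not show a lack of effect. With the replicate number as a block, 2793 genes (14.5%) and 2 members had an unadjusted p under 0.05 in edgeR. The smallest adjusted p of any gene was then 0.16.

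The 3 graphene oxide libraries did not overlap the 3 controls for 2 members, 6.90% of those tested, against 7.75% of all genes. The gene tollip was at 29.4, 31.5 and 28.2 CPM in control and at 27.0, 25.3 and 24.9 CPM with graphene oxide, lower in every treated library (log2 fold change -0.21 ± 0.11, SE). The gene tnip1 was at 62.1, 66.4 and 71.4 CPM in control and at 73.4, 74.8 and 71.5 CPM with graphene oxide, so the replicate 3 pair differed hardly at all. In FPKM the tnip1 groups did overlap, at 35.7 in control replicate 3 and 35.5 in graphene oxide replicate 3, and the tollip groups did not. Neither passed the test.

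A total of 12 members moved in the same direction in the 3 pairs of same-numbered libraries, 7 higher and 5 lower, where 37.7% of all genes did so, 18.1% higher and 19.6% lower. Of these, rel (415101), the c-Rel subunit gene of lymphoid and myeloid cells, had nearly equal differences in each pair. It was at 14.1, 14.2 and 22.0 CPM in control and at 11.2, 10.9 and 16.9 CPM with graphene oxide. The log2 ratio was -0.33, -0.38 and -0.38 in pairs 1, 2 and 3, but the groups overlapped because both replicate 3 libraries were high. With the replicate number as a block, edgeR gave rel an adjusted p of 0.273, the smallest of any member. The flagellin receptor gene tlr5b was lower in each pair too, with log2 ratios of -0.69, -0.30 and -0.40, at 4.33, 3.50 and 9.70 CPM in control and 2.68, 2.84 and 7.33 CPM with graphene oxide (blocked adjusted p = 0.357, edgeR).

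Among replicates 1 and 2, 5 members rose and 3 fell with graphene oxide in the same edgeR test. Those that rose were 17.2% of the 29 members and those that fell 10.3%, where 12.9% and 12.0% of all genes passed in these directions, so the shares were close to the background. The 8 members were 27.6% of those tested against 24.9% of all genes. They were 3 of 9 adaptors, 1 of 5 transcription factors, 4 of 7 inhibitors, 0 of 7 kinases and 0 of 1 receptor tested, and differences between tiers were not tested. The spread in this test is that between 2 very similar libraries per group, with a common dispersion of 0.000716 against 0.166 over all 6, and these libraries may be technical repeats.

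Of the adaptors, myd88 (403145), which encodes the adaptor shared by most Toll-like receptors and the interleukin-1 receptor, rose the most. It was at 4.13 and 3.57 CPM in control and at 7.95 and 8.21 CPM with graphene oxide, a 2.11-fold difference (log2 fold change 1.08 ± 0.22, SE, adjusted p = 1.97e-05, edgeR). The replicate 3 pair stood at 10.6 CPM in control and 8.43 CPM with graphene oxide, so the control of that pair was the highest of all 6 libraries. The genes traf2a (564295) and tab3 (566547) fell. The first was at 42.9 and 39.6 CPM in control and 35.1 and 29.9 CPM with graphene oxide (-0.35 ± 0.09, adjusted p = 0.000954, edgeR), with 18.9 and 21.3 CPM in replicate 3. For tab3, which encodes a subunit that activates TAK1, the levels were 34.8 and 36.5 CPM in control and 26.4 and 31.1 CPM with graphene oxide (-0.31 ± 0.09, adjusted p = 0.0075, edgeR), with 20.3 and 26.3 CPM in replicate 3. In both genes the replicate 3 pair had the opposite direction. Without graphene oxide replicate 2 the call of traf2a was lost, at an adjusted p of 0.163, and that of tab3 was lost without control replicate 2 (0.0972) or graphene oxide replicate 1 (0.233).

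The adaptor genes traf6 and traf2b did not pass. For traf6 the levels were 2.65 and 2.62 CPM in control and 3.88 and 4.66 CPM with graphene oxide (log2 fold change 0.70 ± 0.28, adjusted p = 0.0546, edgeR). For ticam1, which encodes the adaptor of the MyD88-independent branch, the log2 fold change was 0.08 ± 0.25, and for tab1 and tab2 it was -0.02 ± 0.11 and 0.13 ± 0.10. None of the 7 tested kinases passed, with log2 fold changes from -0.37 ± 0.30 for irak4 to 0.53 ± 0.39 for ripk1l. The best measured of them gave narrow errors, with -0.10 ± 0.07 for chuk, -0.05 ± 0.08 for ikbkg and -0.15 ± 0.08 for map3k7.

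Of the transcription factors, nfkb1 (565756) was the one that rose. It was at 2.54 and 3.49 CPM in control and 4.90 and 5.21 CPM with graphene oxide (0.72 ± 0.26, adjusted p = 0.0294, edgeR), and at 10.1 and 8.89 CPM in the replicate 3 pair. Its call was lost without control replicate 1 (adjusted p = 0.227), graphene oxide replicate 1 (0.0938) or graphene oxide replicate 2 (0.179). The values of rela, nfkb2 and relb were 0.16 ± 0.17, -0.14 ± 0.11 and 0.00 ± 0.13 on the log2 scale, and rel was at -0.36 ± 0.15 (adjusted p = 0.0583, edgeR).

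The inhibitors changed in both directions. The gene nfkbiz (100001781), which encodes IkB-zeta, a nuclear protein known in mammals to help NF-kB switch on a subset of its targets, rose. It was at 10.3 and 10.9 CPM in control and 19.5 and 18.9 CPM with graphene oxide, a 1.81-fold difference (0.85 ± 0.14, adjusted p = 4.58e-08, edgeR), with 15.1 and 14.4 CPM in the replicate 3 pair. The gene tnfaip3 (564497), which encodes the ubiquitin-editing enzyme A20, was at 9.22 and 8.18 against 11.1 and 12.1 CPM (0.42 ± 0.16, adjusted p = 0.0422, edgeR). Its partner gene tnip1 (449958) rose by 0.20 ± 0.06 on the log2 scale (adjusted p = 0.0112, edgeR). The classical inhibitor gene nfkbiaa (406463) fell, from 24.2 and 26.0 to 18.2 and 18.7 CPM, a fold of 0.734 (-0.45 ± 0.12, adjusted p = 0.00117, edgeR), and stood at 28.2 CPM in both replicate 3 libraries. Its duplicate nfkbiab was at -0.09 ± 0.07 and nfkbib at 0.00 ± 0.08, so the IkB-alpha pair differed in whether they passed, a difference that was not itself tested.

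The call of tnfaip3 was lost without any of the 4 libraries, at adjusted p-values from 0.0556 to 0.292, and when no FPKM minimum was set (0.0503). That of tnip1 was lost without control replicate 1 (0.124), graphene oxide replicate 1 (0.0551) or graphene oxide replicate 2 (0.119). The calls of myd88, nfkbiz and nfkbiaa held without each library, and DESeq2 kept those of myd88 and nfkbiz but lost the other 6, at adjusted p-values from 0.0678 for nfkbiaa to 0.353 for tnfaip3. Below the FPKM minimum, bcl3, which encodes a further nuclear IkB protein, had 4, 4 and 27 counts in control and 24, 14 and 24 with graphene oxide. It passed among replicates 1 and 2 when no minimum was set (log2 fold change 2.14 ± 0.64, adjusted p = 0.00709, edgeR). The gene irak3, which encodes a kinase relative that restrains signalling, had 5, 11 and 7 counts in control and 14, 19 and 24 with graphene oxide. It was the only 1 of the 21 untested members whose treated libraries did not overlap the controls, where 5.83% of all genes below the minimum did so. It did not pass over 6 libraries without a minimum (1.30 ± 0.42). The low adaptor genes tirap and traf1 had 2 to 10 and 3 to 19 counts.

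Marker levels moved in these 4 libraries as well. The summed macrophage markers were at 22.5 and 21.8 CPM in control and 28.9 and 24.9 CPM with graphene oxide. The macrophage growth factor receptor gene csf1ra was the only one of 6 that passed (0.58 ± 0.21, adjusted p = 0.0333, edgeR). Its fellow marker mfap4 was lower without passing (-0.69 ± 0.29, adjusted p = 0.0707, edgeR). The markers mpeg1.1, marco, spi1b and slc7a7 had log2 fold changes from 0.17 to 0.61 and did not pass. The neutrophil sum was 67.0 and 69.9 against 60.1 and 63.1 CPM. Of its 4 tested markers lyz, the lysozyme gene, fell (-0.53 ± 0.09, adjusted p = 6.33e-08, edgeR) and the collagenase gene mmp13a rose (1.24 ± 0.28, adjusted p = 0.000119, edgeR), while mpx and nccrp1 stood at 0.17 ± 0.20 and 0.03 ± 0.13. The endothelial sum was 66.6 and 59.9 against 97.4 CPM in both treated libraries, and 3 of its 5 markers rose. Of 5 neural markers 4 fell, with sums of 1988 and 1979 against 1867 and 1891 CPM. The hepatocyte sum was 348 and 336 against 99.2 and 92.9 CPM, and 8 of its 10 markers fell. The 6 skeletal muscle markers and the 5 epidermal markers all fell. The muscle sum went from 57441 and 57939 to 52539 and 52659 CPM, the epidermal sum from 21986 and 21751 to 19869 and 19876 CPM. Log2 fold changes ran from -0.38 (pvalb2) to -0.08 (actc1b) in muscle and from -0.46 (krt5) to -0.07 (cyt1) in epidermis. In the replicate 3 pair myhz1.1, actc1b and ckma were higher (0.10, 0.18 and 0.17), and pvalb2, mylpfa and tnnt3b lower (-0.15, -0.03 and -0.04). Of all genes 12.9% were called higher and 12.0% lower in these 4 libraries. The part of these markers in the members' changes was not tested.

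**Figure D3:**
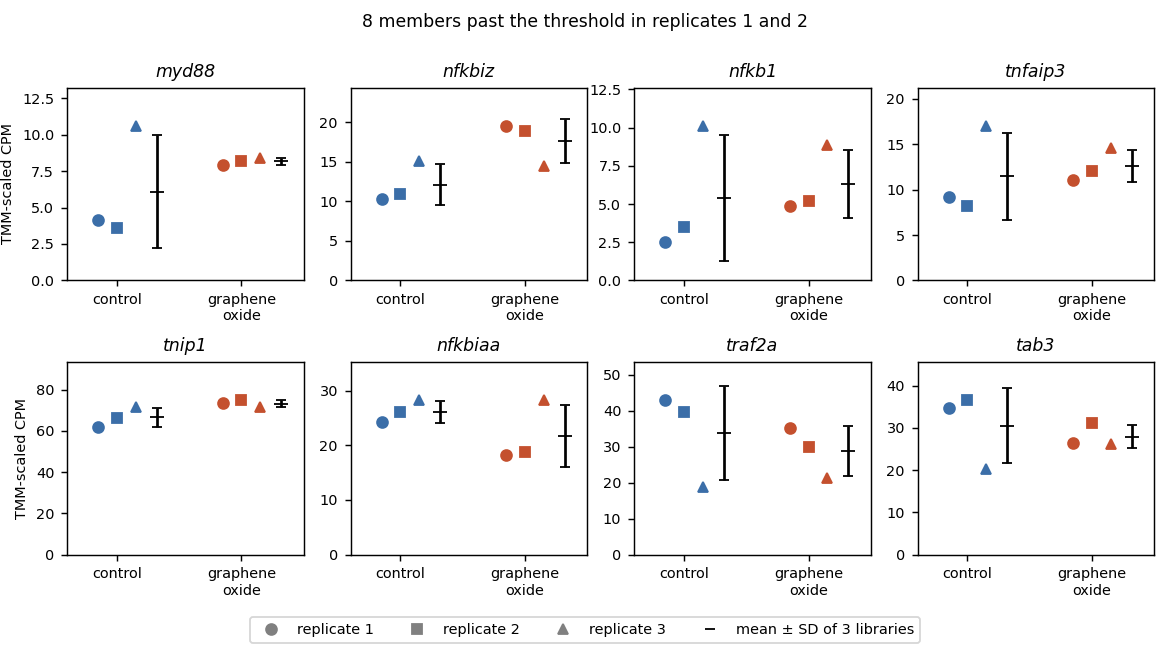
TMM-scaled CPM in each library for the 8 members past the threshold among replicates 1 and 2, with the mean ± SD of the 3 libraries of each group. In myd88, nfkb1 and tnfaip3 the triangle of control replicate 3 lies above all other libraries, and in nfkbiz the treated replicates 1 and 2 lie above all other libraries.

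Whether the effect in replicates 1 and 2 differed from that in the replicate 3 pair was tested with an interaction term over the 6 libraries, whose spread again comes from replicates 1 and 2 alone. The replicate 3 side is 1 library per group, and that split had been seen in these data, so a pass here says only that the pair lay outside the spread of replicates 1 and 2. It passed for 4 of 29 members, 13.8%, where 14.2% of all genes passed. Of the 4, the effect was higher in replicates 1 and 2 for 2 and lower for 2, where 7.59% and 6.63% of all genes passed in these directions. For myd88 the effect was larger in replicates 1 and 2 by 1.41 ± 0.33 on the log2 scale (adjusted p = 0.000618, edgeR), with a log2 ratio of -0.33 in replicate 3. For nfkbiz the difference was 0.92 ± 0.24 (adjusted p = 0.00274, edgeR), with -0.07 in replicate 3. For tab3 and traf2a it was -0.68 ± 0.18 and -0.52 ± 0.18 (adjusted p = 0.00306 and 0.0416, edgeR), with 0.37 and 0.17 in replicate 3. DESeq2 called none of these differences, at adjusted p-values of 0.291 to 0.707, and the traf2a call was also lost without control replicate 1 (0.0944) or graphene oxide replicate 2 (0.245). The differences for nfkb1, tnfaip3 and nfkbiaa, at 0.90 ± 0.37, 0.65 ± 0.26 and -0.45 ± 0.19, did not pass (adjusted p = 0.087, 0.0779 and 0.0962, edgeR).

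**Figure D4:**
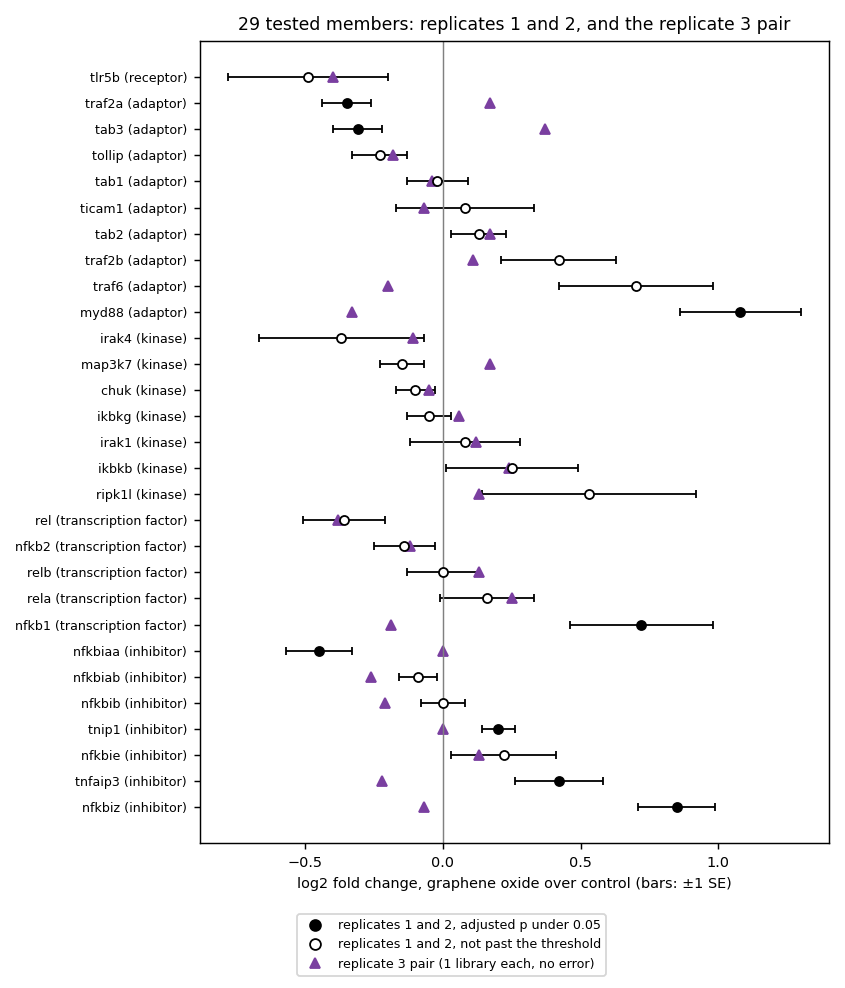
Log2 fold change of graphene oxide over control for the 29 tested members, ordered by tier, among replicates 1 and 2 (circles with ± 1 SE, filled where the adjusted p was under 0.05) and in the replicate 3 pair (triangles, 1 library each). The circle and triangle of myd88 stand at 1.08 and -0.33, and those of rel at -0.36 and -0.38.

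For several NF-kB genes the tables list more than 1 row under the same gene ID, and the share of counts on each row differed between replicate 3 and the other libraries. The rows were summed for all values above, and what distinguishes them is not given in the sources used here. For nfkb2 (415100) the first row held 67.7%, 66.2% and 12.7% of the gene's counts in control replicates 1, 2 and 3 and 66.2%, 52.3% and 9.16% with graphene oxide. For relb (795414) the third row held 27.5%, 25.3% and 71.3% in control and 23.0%, 28.4% and 81.6% with graphene oxide. For nfkbib (797834) the first row held 21.2%, 20.0% and 51.7% in control and 23.8%, 24.2% and 71.8% with graphene oxide.

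In each of these genes the replicate 3 libraries of both groups went the same way, and the treated libraries of replicates 1 and 2 lay nearer to their controls than to replicate 3, the farthest being nfkb2 in graphene oxide replicate 2. The rows of traf2a moved less, with 83.3%, 82.9% and 69.6% of its counts on the third row in control and 85.7%, 84.9% and 62.3% with graphene oxide. The counts of tlr3 were split evenly between its 2 rows in every library. Thus the summed level of nfkbib overlapped between replicate 3 and the others, at 45.0 to 55.8 CPM over the 6 libraries, while its rows did not.

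**Figure D5:**
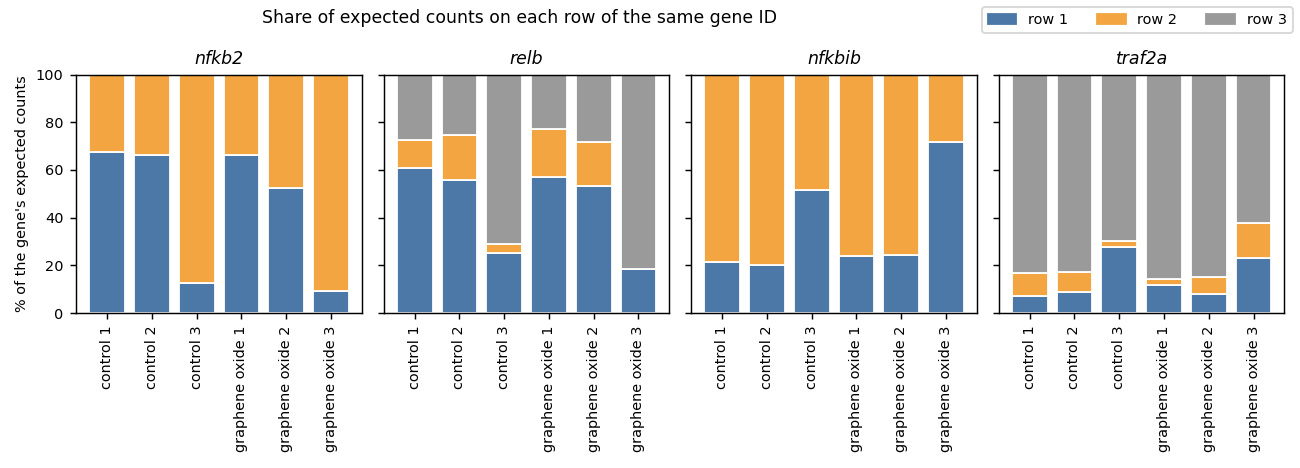
Percent of a gene's expected counts on each row that the tables list under its gene ID, as stacked bars for the 6 libraries, for nfkb2, relb, nfkbib and traf2a. The bars of control 3 and graphene oxide 3 differ from the other 4, most visibly for nfkb2, where row 1 falls to 12.7% and 9.16%.

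Other genes of the pathway were followed through 6 lists, and none of their members passed over all 6 libraries in edgeR. Among replicates 1 and 2 the counts below stand against 12.9% of all genes called higher and 12.0% called lower. The lists were chosen with earlier results of these data known, so a share above these is description only. Of 13 tested genes of ubiquitin conjugation and editing, 2 rose and 2 fell, 15.4% each way and close to those shares. The gene cyldb, which encodes a deubiquitinase that removes activating chains, rose from 5.73 and 5.24 to 19.2 and 16.7 CPM (log2 fold change 1.71 ± 0.16) but stood at 19.4 and 9.63 CPM in the replicate 3 pair. The ubiquitin-conjugating enzyme genes ube2na and ube2v2, whose products build the chains used by TRAF6, fell by 0.27 ± 0.04 and 0.23 ± 0.05 on the log2 scale. In the replicate 3 pair their log2 ratios were 0.19 and 0.17. The call of ube2v2 was lost with limma (adjusted p = 0.0575 and 0.058). The median log2 fold change of the list was -0.05.

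Of 10 tested genes of tumour necrosis factor receptor and alternative signalling, 4 rose (40.0%) and 0 fell, with a median of 0.17. The receptor gene tnfrsf1a rose from 11.2 and 11.4 to 15.8 and 17.4 CPM (0.56 ± 0.14). The gene xiap, an inhibitor of apoptosis, rose by 0.36 ± 0.10 and bcl10, a signalling scaffold, by 1.71 ± 0.41 from 1.17 and 0.715 CPM. In the replicate 3 pair the log2 ratios of tnfrsf1a, xiap and bcl10 were 0.27, -0.23 and -0.09. The call of tnfrsf1a was lost without graphene oxide replicate 2 (adjusted p = 0.0524) and with DESeq2 (0.065). That of xiap was lost without control replicate 2 (0.144) or graphene oxide replicate 2 (0.0813) and with DESeq2 (0.127), and that of bcl10 without graphene oxide replicate 1 (0.108) and with limma (0.0552 and 0.0572). Of 15 genes of the MAP kinase branch, 5 rose (33.3%) and 0 fell, with a median of 0.09. The kinase gene map3k1 and the AP-1 gene jun rose by 0.48 ± 0.10 and 0.26 ± 0.06, with log2 ratios of -0.03 and 0.18 in the replicate 3 pair. The call of map3k1 was lost with limma on log2(FPKM + 0.1) (adjusted p = 0.0504). None of the 7 tested genes of the interferon branch passed, with a median of 0.20, and of the 2 tested trafficking genes the chaperone gene hsp90b1 fell by 0.31 ± 0.03.

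Of 13 tested genes known as NF-kB-inducible effectors in fish or mammals, 6 rose (46.2%) and 1 fell (7.69%), with a median of 1.20 against 0 over all genes. This list, too, was chosen with earlier results of these data known. The cyclooxygenase genes ptgs2b and ptgs2a rose by 3.65 ± 0.09 and 1.23 ± 0.10, and irg1l, which encodes the itaconate-producing enzyme, by 4.26 ± 0.10. In the replicate 3 pair the log2 ratios of these 3 genes were -0.55, -0.05 and -0.02. The gene that fell was the cytokine gene tnfb (log2 fold change -2.00 ± 0.48, adjusted p = 0.000336, edgeR), whose log2 ratio in the replicate 3 pair was 1.66. The tested genes il1b, cxcl8a, cxcl8b.1, cxcl18b, nos2b and hamp did not pass. Their log2 fold changes ran from -0.64 ± 0.65 for cxcl8b.1 to 1.24 ± 0.78 for cxcl18b, with 0.37 ± 0.46 for il1b. The cytokine genes tnfa and il10 had 0 counts in all libraries and il6 had 2 counts, in graphene oxide replicate 3. The effector list sum was 60.5, 55.6 and 138 CPM in control replicates 1, 2 and 3 and 326, 322 and 137 CPM with graphene oxide, so the treated libraries of replicates 1 and 2 were the highest. That order came from ptgs2b, irg1l and ptgs2a, without which the sum was 26.1, 25.5 and 80.3 CPM in control and 52.3, 47.2 and 86.7 CPM with graphene oxide, highest in replicate 3.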

How the data were processed

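The submitters' processing notes name Bowtie2 2.3.2 and the assembly GRCz11. Neither the program that estimated counts nor how it treated strand is given in the sources used here, so overlapping and antisense genes cannot be told apart. Per the file headers, each deposited table gives expected counts (estimated counts that need not be whole), TPM and FPKM for 43106 rows. TPM, which the authors normalised to 1000000 per library, was not used further. Rows were summed by gene ID (5932 of 36191 IDs stand on several rows). Of the 50 members, 49 were found by ID in RefSeq's table, which follows GRCz12tu, so no coordinates are given.

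Expected counts were rounded and tested with edgeR 4.0.16 (quasi-likelihood, two-sided, TMM scaling, group as the only term), with limma 3.58.1 and DESeq2 1.42.0 as alternatives, in R 4.3.3. Genes needed a mean of 1 FPKM, which left 19313. The threshold was an adjusted p of 0.05 over all genes. The difference of effects was an interaction term. Scripts were tested on simulated data. Floors of 3 counts cover counting error only, since PCR copies were not told apart by molecular identifiers.

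The members, lists and tests were chosen with earlier results of these data known. Full values are given for members past a test or with groups that did not overlap, and for myd88, nfkbiaa, nfkb1, rela and tlr5b, and for up to 3 called genes of each pathway list, of which 1 is not reported here; bcl3, irak3 and rel were singled out after their values were seen. Deviations from group means correlated at 0.73, 0.75 and 0.87 between same-numbered libraries, all past 0.1. Same-numbered libraries were therefore set beside each other as pairs and in the blocked fit, but not in the main tests. The pairing comes from the data. Because replicates 1 and 2 also correlated across numbers (0.72 and 0.74), the check cannot tell pairing within them from the split by replicate 3. Replicates 1 and 2 of a group differed by more than counting noise (chi-square per degree of freedom 1.62 and 1.56), as library preparations of the same RNA would too, and were counted separately because the labels number them so.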

Additional observations from a re-analysis of the deposited data

Results flagged for a closer look

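The effect of graphene oxide passed the interaction test of edgeR, replicates 1 and 2 against the replicate 3 pair, for 4 of 29 tested members. These were 13.8% of the members, where 14.2% of all genes passed. The effect also passed for genes of the other pathway lists, which are given here. Values are the log2 effect in replicates 1 and 2 minus that in replicate 3. Among members it was 1.41 for myd88, 0.92 for nfkbiz, -0.68 for tab3 and -0.52 for traf2a. Among ubiquitin genes it was 2.72 for cyldb, -0.47 for ube2na, -0.40 for ube2v2 and -0.31 for ube2nb (adjusted p = 0.049, edgeR). For the signalling genes xiap, bcl10 and map3k1 it was 0.58, 1.80 and 0.50. For the effector genes irg1l, ptgs2b, ptgs2a, mmp9 and socs3a it was 4.28, 4.20, 1.28, 1.49 and 1.26. For tnfb, with 4 to 29 counts per library, it was -3.66. The replicate 3 pair has 1 library per group, so the spread behind these tests is that of replicates 1 and 2. The split had also been seen in the data. Apart from tnfb, mmp9, socs3a and ube2nb, the pathway genes were picked for the smallest p among replicates 1 and 2, which favours a pass here. Their number is therefore not set against the share of all genes. DESeq2 and limma left fewer of these differences. Of the 4 members DESeq2 called none (adjusted p = 0.291 for myd88 to 0.707 for traf2a), and the limma fits kept only myd88 and nfkbiz. Alternative fits of tnfb, mmp9, socs3a and ube2nb are not given here. Those of map3k1, ube2v2 and xiap did not pass with DESeq2 (adjusted p = 0.586, 0.121 and 0.376) or either limma fit, and that of ube2na passed with neither limma fit (0.0707 and 0.0782). That of bcl10 passed with neither limma fit (0.234 and 0.241) and was lost without control replicate 2 (0.12) or graphene oxide replicate 1 (0.203).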

How the results depend on the processing

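Over all 6 libraries, no alternative called a member, and DESeq2 was the only one to call any gene (10). With the replicate block 0 genes passed there and 4892 passed among replicates 1 and 2, against 4810 without it, and the block changed no member's call. Among replicates 1 and 2 the genes called numbered 2042 with DESeq2 and 2468 and 2273 with limma on log2(FPKM + 1) and log2(FPKM + 0.1). They numbered 3037 to 3855 when each library was left out, the fewest without graphene oxide replicate 2. The 5 members called higher there became 2 with DESeq2, 3 with either limma fit, 2 at a threshold of 0.01 and 2 to 4 without a library. With a minimum of 5 FPKM they became 3, because nfkb1 and tnfaip3 lay below it and were not tested. The 3 called lower became 0 with DESeq2, 1 with either limma fit and 2 to 3 without a library. For the difference of effects, 2746 genes passed, against 754 with DESeq2, 779 and 702 with the limma fits and 1758 to 2594 without a library. Of its 2 higher and 2 lower members DESeq2 called 0 and 0, limma 2 and 0, and leaving out a library gave 2 to 3 and 1 to 2. Leaving out a replicate 3 library could not be fitted there, and DESeq2 gave bcl10 no adjusted p. The cause of these changes was not tested.

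Directions over 6 libraries turned when a library was left out, never past the threshold, with log2 fold changes from -0.10 to 1.06 for nfkb1, -0.49 to 0.86 for rela, -0.06 to 0.53 for tnfaip3, -0.35 to 0.02 for tab3, -1.08 to 0.13 for tlr5b, -0.40 to 0.01 for ube2na and -0.26 to 0.65 for xiap. The uncalled difference of effects for tlr5b was 0.07 with limma on log2(FPKM + 1) and -0.25 to 0.07 without a library, and for tollip 0.02 with both limma fits and -0.10 to 0.01 without a library. No named gene turned direction among replicates 1 and 2. Depth limits the 21 members below 1 FPKM, most of them receptors.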

Other observations

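The shift of counts between rows of the same gene ID was not limited to the NF-kB genes. Of 3183 gene IDs with several rows and at least 50 counts in each library, 861 (27.0%) had both replicate 3 libraries outside the other 4, by at least 20 percentage points on average, in the share of the row with the most counts. Of the 4 members that could be examined this way, 3 did so. Between the treated and control libraries of replicates 1 and 2 the same was true of 46 gene IDs (1.45%) and of 0 members. The median shift was 6.82 percentage points for replicate 3 and 1.60 for graphene oxide.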
